A study of Homo sapiens with 14 samples.

Results

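The chromosome 19 zinc finger genes are the protein-coding genes of human chromosome 19 whose symbol is ZNF followed by a number. The rule took every gene with such a symbol, on that chromosome and of the protein-coding type in the deposited table of reads, and kept for description those with 10 or more reads in at least 2 libraries. It found 219 genes among the 28120 genes of the table, of which 192 are described and 27 lay below the limit. The rule itself names no treatment effect, but it was chosen with earlier results of these data known. Its limit on reads can be met by the 2 libraries of a single group. The 27 quiet genes include ZNF93, a known repressor of L1 retrotransposons in human pluripotent cells, with at most 9 reads in any library. The highest value among the 27 was 11 reads, for ZNF607, in a single library.

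PANC-1, a human cell line derived from a pancreatic ductal carcinoma, was exposed to proanthocyanidins (PA, plant polyphenols) at 20 µg/ml or to the solvent DMSO. RNA was sequenced from PA-exposed cells at 3, 12 and 24 h, from DMSO-exposed cells at 3, 12 and 24 h, and from DMSO-exposed cells at 0 h. Each of the 7 groups had 2 libraries, described in the study's design as biological replicates of this single line, labelled as passage 3 to 5. Nothing says that they came from separate cultures, so the p-values measure the spread between these libraries, which may be technical. No group at 0 h received PA, and no second line or dose was used here.

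Most proteins of this family carry rows of C2H2 zinc fingers, each a short fold around a zinc ion that reads a few bases of DNA. Many also carry a KRAB domain, which binds the corepressor TRIM28, and TRIM28 brings in the histone methyltransferase SETDB1 and heterochromatin proteins to silence the bound DNA, often a transposable element. The genes multiplied by tandem duplication and stand in long runs on chromosome 19, so neighbours are often close relatives.

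Library depth ranged from 26403984 to 35213154 reads. The epithelial keratins KRT8, KRT18 and KRT19 were abundant (lowest library 2344, 2039 and 519 CPM, reads scaled to library size), as was VIM (lowest 1549 CPM), a mesenchymal filament that PANC-1 is known to express, whereas CDH1, which encodes E-cadherin, did not exceed 1.34 CPM. Leukocyte PTPRC, acinar PRSS1 and endocrine INS stayed at or below 0.150, 0.0285 and 0.0322 CPM. CD68 was present at 31.2 to 77.7 CPM and COL1A1 at 8.15 to 28.9 CPM, while the fibroblast genes COL1A2 and DCN stayed at or below 0.0586 and 0.111 CPM. Of 29 markers of cell types that the culture could hold, 12 passed the filter on low counts, and 7 of these were called higher with PA at 12 and at 24 h and none lower, by the edgeR test used for the members. KRT19 changed by 1.995 and 2.20 on the log2 scale at 12 and 24 h, KRT8 by 1.39 and 1.78, KRT18 by 0.89 and 1.40, KRT7 by 1.19 and 1.19, COL1A1 by 1.28 and 0.65, CD14 by 1.62 and 1.57, and CD68 by 0.52 and 1.17. The summed level of the 5 leukocyte markers was 81.9 to 82.9 CPM in PA cells at 24 h, against 33.2 to 39.1 CPM in DMSO cells, and that of the 6 fibroblast markers, mostly COL1A1, was 20.5 to 20.9 CPM in PA cells, against 13.1 to 13.8 CPM in DMSO cells. Their part in the results on the members was not tested.

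Fingers of 3 members of the same run were compared at the DNA level. A stretch of 78 bases from the middle of each finger row is shown, because short reads are assigned to genes through differences between such stretches. Each stretch runs from the first cysteine codon of a finger through the linker to the next finger, with the linker codons in capitals, read on the coding strand from the longest GENCODE release 29 transcript (GRCh38).
ZNF91: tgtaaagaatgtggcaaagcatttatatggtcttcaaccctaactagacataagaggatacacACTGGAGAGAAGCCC
ZNF43: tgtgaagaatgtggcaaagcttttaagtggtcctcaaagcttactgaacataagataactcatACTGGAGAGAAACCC
ZNF100: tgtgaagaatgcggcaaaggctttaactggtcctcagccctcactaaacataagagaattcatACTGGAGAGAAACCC
ZNF43 matched ZNF91 at 62 of the 78 bases and ZNF100 matched ZNF91 at 64. No finger from another run was compared, so whether this likeness is particular to neighbours was not tested. Over whole transcripts, 91 of the 192 members shared at least 1 exact stretch of 75 bases with another gene, but the shared part exceeded 10% of the transcript in 20 members only. It was 0.332% in ZNF91, 0.182% in ZNF43 and 1.75% in ZNF100, against 99.5% in ZNF320, the highest.

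Promoters were read for 173 of the 192 members from RefSeq (GRCh38.p14), each 250 bases before to 50 bases after the gene's start. CCGGAAGT, the core recognised by ETS factors, stood on either strand in 20.8% of them, against 8.49% of the 9502 promoters of other protein-coding genes tested and 4.43% of all 27305 promoters of this length. It was present in 19.05% of the 105 promoters of members that fell with PA at 12 or 24 h and in 20.0% of the 20 promoters of members that rose. One promoter of each kind is shown with the motifs in capitals, ZNF829 at chr19:36916242-36916541 and ZNF787 at chr19:56121246-56121545, both on the minus strand and both from 5′ to 3′.
ZNF829: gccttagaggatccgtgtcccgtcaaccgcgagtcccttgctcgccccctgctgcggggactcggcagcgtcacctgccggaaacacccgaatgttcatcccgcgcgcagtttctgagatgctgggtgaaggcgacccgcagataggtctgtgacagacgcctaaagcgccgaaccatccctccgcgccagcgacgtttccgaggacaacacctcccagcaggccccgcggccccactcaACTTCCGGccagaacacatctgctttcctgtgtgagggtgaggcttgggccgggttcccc
ZNF787: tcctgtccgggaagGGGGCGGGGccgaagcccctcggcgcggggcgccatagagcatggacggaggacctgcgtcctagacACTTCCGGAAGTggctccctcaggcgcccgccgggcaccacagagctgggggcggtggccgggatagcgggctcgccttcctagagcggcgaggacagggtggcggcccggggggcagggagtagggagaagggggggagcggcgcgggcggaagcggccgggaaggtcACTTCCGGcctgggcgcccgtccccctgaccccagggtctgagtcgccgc
The capitals mark the ETS letters on one strand or the other in both promoters, with 2 overlapping copies from bases 82 and 86 of the ZNF787 run, counted from its 5′ end, and another from base 251. GGGGCGGGG, an SP/KLF motif, starts at base 15 of that run. GGGGCGGGG stood in 23.7% of the members' promoters and 28.4% of those of other protein-coding genes tested. The YY1 motif GCCATNTT stood in 13.9% and 10.0%, and TATAAA in 2.31% and 5.55%, in the same order of sets. A match of letters is a description and not a bound site.

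Most members are transcribed at low levels in PANC-1. By the authors' RPKM, a level scaled by gene length and library size, 103 of the 192 averaged under 1 RPKM over the 14 libraries and 3 averaged 10 RPKM or more, with a median of 0.911. ZNF146, whose protein consists of zinc fingers without a KRAB domain and which is known to be overexpressed in pancreatic carcinomas, led with a mean of 50.0 RPKM. It was followed by ZNF787 at 16.8, ZNF580 at 12.5, ZNF444 at 8.89, ZNF317 at 8.26 and ZNF302 at 7.71 RPKM. The leading gene alone held between 2.41% and 17.0% of each library's member reads. In a count of predicted proteins, the described genes had a median of 12 finger matches, with the most in ZNF91 (32) and ZNF850 (29).

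The summed level of the members was lower in PA cells at every time. They took 0.125 and 0.147% of all reads in PA cells at 3 h, against 0.191 and 0.200% in DMSO cells at 3 h. At 12 h they took 0.0930 and 0.131% in PA cells and 0.236 and 0.220% in DMSO cells. At 24 h they took 0.0958 and 0.0892% in PA cells, against 0.199 and 0.201% in DMSO cells, with 0.201 and 0.180% in DMSO cells at 0 h. These shares are of raw reads, without the TMM normalisation used for CPM. Summed TMM-normalised CPM at 24 h were 1161 and 1064 in PA cells, against 1832 and 1891 in DMSO cells. That is a smaller relative gap than in the raw shares. By both measures each PA library lay below every DMSO library. In bulk RNA, fewer cells of a kind and less RNA per cell cannot be told apart.

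**Figure D1:**
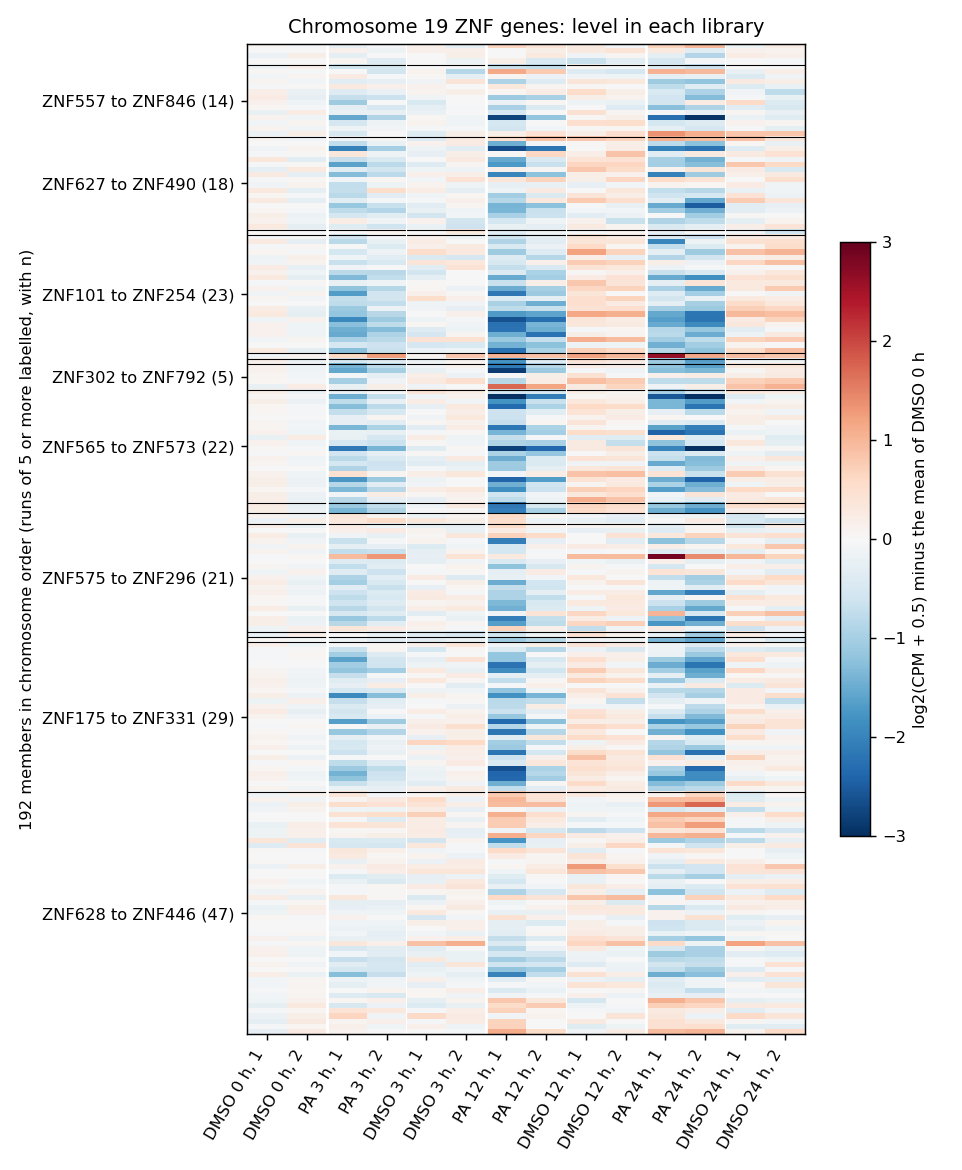
Level of the 192 members (rows, in chromosome order, with lines between runs of neighbours and runs of 5 or more labelled with their first and last gene and n) in each of the 14 libraries (columns), as log2(CPM + 0.5) minus the mean of the 2 DMSO 0 h libraries. The PA columns are mostly blue (lower), more so in PA 12 h replicate 1 than in replicate 2, and a patch of red stands at the start of the last run, ZNF628 to ZNF446.

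At 3 h, 12 members fell with PA and none rose. Across all 15181 genes tested, 1.58% were called lower and 0.138% higher at this time. The calls rest on edgeR's quasi-likelihood test with Benjamini-Hochberg adjustment over all genes tested and a threshold of 0.05. In 120 members neither PA library reached a DMSO library from below, and in 13 neither fell to a DMSO library from above, against 27.9% and 26.7% of all genes tested. The median log2 change was -0.44 over the members, and -0.01 over all genes tested.

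The 12 were ZNF738, ZNF100, ZNF43, ZNF91 and ZNF681 in one run, and ZNF829, ZNF569, ZNF793, ZNF780B, ZNF226, ZNF480 and ZNF83 elsewhere. All 12 were called lower at 12 and 24 h as well. ZNF681 had 0.284 and 0.388 CPM in PA cells at 3 h, against 1.60 and 1.64 CPM in DMSO cells at 3 h (log2 change -2.25 ± 0.38, SE, edgeR adjusted p = 0.00807). ZNF480 had 2.05 and 3.46 CPM in PA cells, against 10.3 and 9.79 CPM in DMSO cells (log2 change -1.86, edgeR adjusted p = 0.00245). ZNF83, which the pattern search did not credit with a KRAB domain, had 6.10 and 9.34 CPM in PA cells and 22.6 and 22.1 CPM in DMSO cells (log2 change -1.53, edgeR adjusted p = 0.0129). In these 3 genes the groups did not overlap, which the rule that named them required. The count at 3 h depends on single libraries: it was 0 without PA 3 h replicate 1, 1 without either DMSO 3 h library, 3 and 5 without DMSO 0 h replicates 1 and 2, 4 without any one DMSO library of 12 or 24 h, 7 without PA 3 h replicate 2, and 48 and 47 without PA 12 h replicates 1 and 2. At an unadjusted p under 0.05, 67 members passed, against 17.1% of all genes tested.

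At 12 h, 92 members fell and 14 rose, against a background of 24.1% of all genes tested called lower and 24.4% called higher. Of these, 70 were at least 2-fold lower and 4 at least 2-fold higher, where 11.8% and 9.31% of all genes tested met those rules. The median log2 change was -0.86, against 0.01 over all genes tested. The PA libraries lay wholly below the DMSO libraries in 137 members and wholly above them in 24, against 37.8% and 37.3% of all genes tested.

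The PA libraries of 12 h were unlike each other. The median member level was 2.28 CPM in replicate 1 and 3.79 CPM in replicate 2, against 5.86 and 5.61 CPM in DMSO cells at 12 h. Without PA 12 h replicate 1 the count was 63 (61 lower, 2 higher), and without PA 12 h replicate 2 it was 133 (112 lower, 21 higher).

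At 24 h, 105 members fell and 19 rose, against 27.5% and 27.2% of all genes tested. At least 2-fold, 76 were lower and 10 higher, where 15.0% and 12.8% of all genes tested met those rules. The PA libraries lay wholly below the DMSO libraries in 133 members and wholly above them in 25, against 40.0% and 39.0% of all genes tested. The median log2 change was -0.81, and -0.01 over all genes tested. Here the PA libraries resembled each other, with median member levels of 2.96 and 2.68 CPM, against 5.36 and 5.33 CPM in DMSO cells at 24 h.

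Over the 3 times, 69 members were lower at 12 and 24 h alone, 11 at 12 h only and 23 at 24 h only. Another 11 were higher at 12 and 24 h, 8 at 24 h only and 2 at 12 h only, and ZNF792 was higher at 12 h and lower at 24 h. The remaining 55 were called at no time, among them ZNF317, with 21.4 and 28.6 CPM in PA cells at 24 h against 27.4 and 32.0 CPM in DMSO cells at 24 h. A call at one time and none at another does not show that the effects differ. The tests of that difference are given further on.

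**Figure D2:**
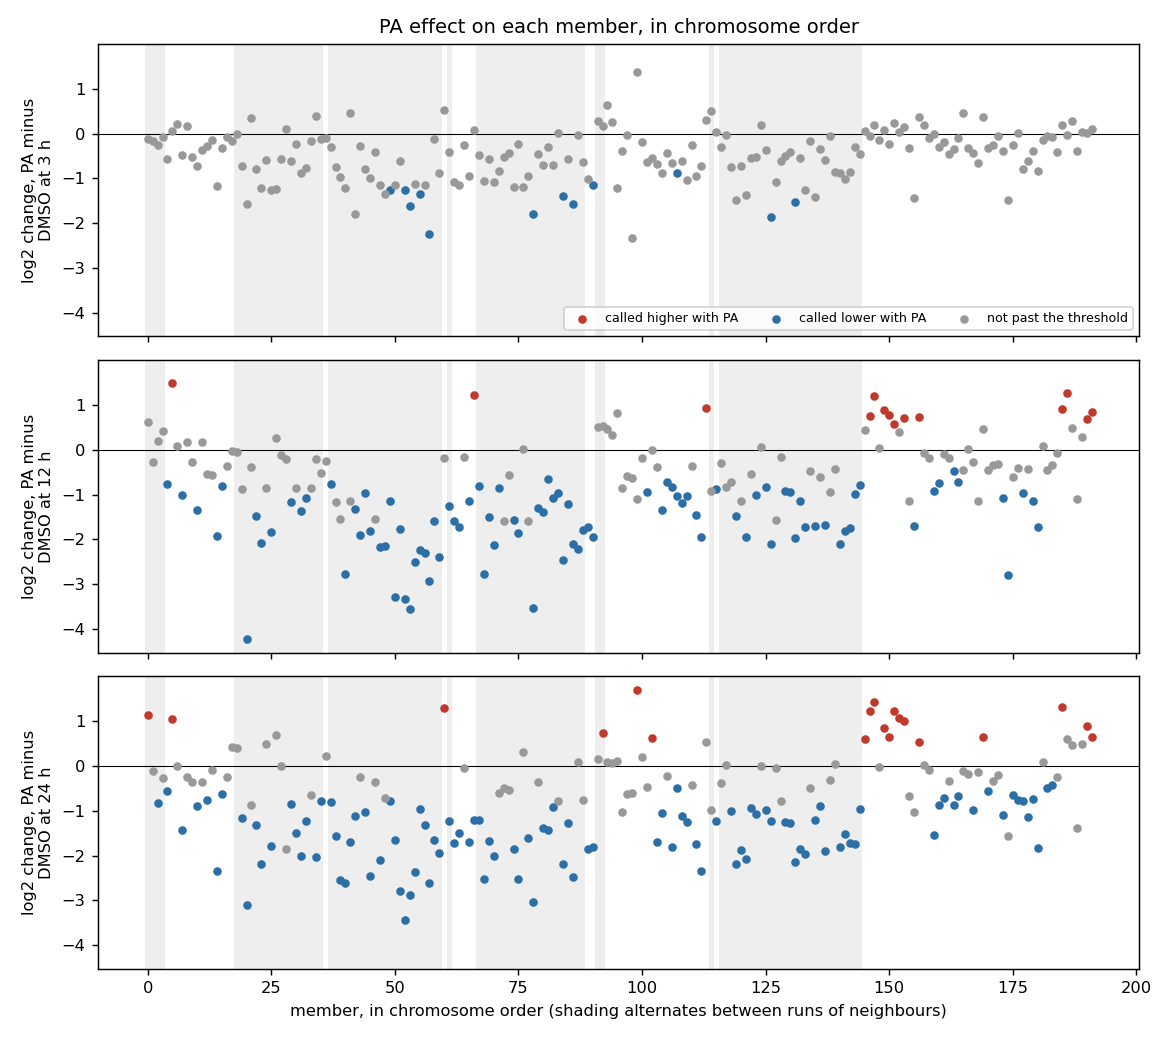
Log2 change, PA minus DMSO, of each member at 3, 12 and 24 h (panels) against its order along chromosome 19, with shading that alternates between runs of neighbours. Red points were called higher, blue points lower, and grey points did not pass the threshold. The lowest point at 12 h is ZNF441, in the run from ZNF627 to ZNF490, and 11 of the 14 rises at 12 h stand in the last run.

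The run from ZNF101 to ZNF254, at chr19:19668796-24129961, had the lowest median log2 change of the runs of 5 or more members at 3, 12 and 24 h. Of its 23 members, 5 were called lower at 3 h, 19 at 12 h and 20 at 24 h, and none was called higher. Among all genes tested, 1.58%, 24.1% and 27.5% were called lower at these times. Medians of the 23 were -1.12, -1.91 and -1.66. The pair ZNF546 and ZNF780B, a run of 2, had a median of -1.82 at 24 h. These are KRAB genes of the primate-expanded kind, with 22 of the 23 matching a loose KRAB pattern, and their transcripts were the poorest in G and C of the long runs (median 37.3%, against 42.4% over all members and 48.9% over all genes tested).

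ZNF100 (chr19:21722766-21767628, minus strand) had 0.827 and 0.929 CPM in PA cells at 12 h, against 9.21 and 8.46 CPM in DMSO cells at 12 h, a log2 change of -3.32 ± 0.32 (SE, edgeR adjusted p = 9.6e-06). At 24 h it had 0.987 and 0.453 CPM in PA cells, against 7.96 and 7.60 CPM in DMSO cells. DMSO cells at 0 h held 4.76 and 3.03 CPM, below the DMSO cells at 12 and 24 h. An exon of the clone gene AC092364.2 overlaps it on the other strand, and the strand setting of the counting is not given in the sources used here.

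ZNF43 (chr19:21804949-21852125, minus strand) had 0.396 and 0.643 CPM in PA cells at 12 h, against 6.51 and 5.82 CPM in DMSO cells. At 24 h the values were 1.23 and 0.697 CPM in PA cells and 5.99 and 8.14 CPM in DMSO cells, a log2 change of -2.87 ± 0.36 (SE). The groups did not overlap at any time, as the rule that named ZNF43 required. ZNF91 (chr19:23304991-23395560, minus strand), a repressor of SVA retrotransposons in human cells, had 0.611 and 1.36 CPM in PA cells at 12 h, against 4.45 and 4.85 CPM in DMSO cells (log2 change -2.23, edgeR adjusted p = 0.000165). It had 2.33 and 1.85 CPM at 24 h in PA cells, against 3.53 and 4.53 CPM in DMSO cells. That fall of 0.95 on the log2 scale lost its call without DMSO 24 h replicate 2 (-0.76) or PA 24 h replicate 2 (-0.79).

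ZNF675, which encodes an inhibitor of TRAF6 signalling, stands beside ZNF681 in the same run. It had 1.69 and 0.786 CPM in PA cells at 12 h, against 6.34 and 5.97 CPM in DMSO cells. Its fall at 24 h of 1.33 on the log2 scale lost its call without DMSO 24 h replicate 2 or PA 24 h replicate 2, where it was -1.09 and -0.97. ZNF681 had 0.216 and 0.464 CPM in PA cells and 2.77 and 2.48 CPM in DMSO cells at 12 h, a log2 change of -2.93 ± 0.38 (SE). ZNF682 and ZNF429 were scarce. ZNF682 had 0.529 and 0.105 CPM in PA cells at 24 h and 1.84 and 2.08 CPM in DMSO cells, a log2 change of -2.62, or -4.18 without PA 24 h replicate 1. ZNF429 had 0.352 and 0.279 CPM in PA cells at 24 h, against 2.31 and 2.11 CPM in DMSO cells (log2 change -2.79, edgeR adjusted p = 0.000395).

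The run from ZNF565 to ZNF573, at chr19:36182060-37817300, holds the most abundant member. Of its 22 members, 18 were called lower at 12 h and 14 at 24 h, none was called higher, and the median log2 changes were -1.53 and -1.33. Among all genes tested, 24.1% and 27.5% were called lower. ZNF146 (chr19:36214602-36238774, plus strand) had 109 and 182 CPM in PA cells at 3 h, against 282 and 328 CPM in DMSO cells. At 12 h it had 24.8 and 70.3 CPM in PA cells, against 312 and 332 CPM in DMSO cells, a log2 change of -2.76 ± 0.37 (SE, edgeR adjusted p = 0.000109). At 24 h it had 50.9 and 37.3 CPM in PA cells and 229 and 274 CPM in DMSO cells (log2 change -2.51, edgeR adjusted p = 0.000113). No PA library reached a DMSO library at any time, although the 3 h difference did not pass (edgeR adjusted p = 0.158). An exon of ZNF565, also called lower at both later times, overlaps ZNF146 on the other strand.

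ZNF829 had 0.576 and 0.964 CPM in PA cells at 12 h, against 8.53 and 9.28 CPM in DMSO cells, a log2 change of -3.52 ± 0.44 (SE). It had 1.41 and 0.349 CPM at 24 h in PA cells and 7.22 and 7.15 CPM in DMSO cells. ZNF260, known in rodent heart as a regulator of natriuretic peptide genes, had 4.28 and 11.9 CPM in PA cells at 12 h, against 35.9 and 34.7 CPM in DMSO cells (log2 change -2.12, edgeR adjusted p = 0.000651). ZNF793 had 0.916 and 1.32 CPM in PA cells at 24 h, against 6.24 and 6.20 CPM in DMSO cells. In none of these 3 genes did the groups overlap at the times given, which the naming rule required for ZNF829.

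ZNF850, with 29 fingers, fell at 12 and 24 h. It had 7.08 and 6.96 CPM in PA cells at 3 h, against 7.99 and 8.38 CPM in DMSO cells. At 12 h it had 2.81 and 3.79 CPM in PA cells and 12.3 and 11.6 CPM in DMSO cells, and at 24 h 1.13 and 1.40 CPM in PA cells, against 7.16 and 7.34 CPM in DMSO cells. The log2 changes were -0.22, -1.86 and -2.52 at the 3 times. The test of the difference passed between 12 and 3 h (-1.64 ± 0.26, SE, edgeR adjusted p = 0.00691) and between 24 and 3 h (-2.30 ± 0.28, SE, edgeR adjusted p = 0.00053), and both held without any single library. ZNF382, a KRAB gene described as a tumour suppressor, stands in the same run at a level too low to judge: it had 0 and 0.250 CPM in PA cells at 12 h, against 0.343 and 0.424 CPM in DMSO cells, where 3 reads correspond to 0.0852 to 0.114 CPM.

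**Figure D3:**
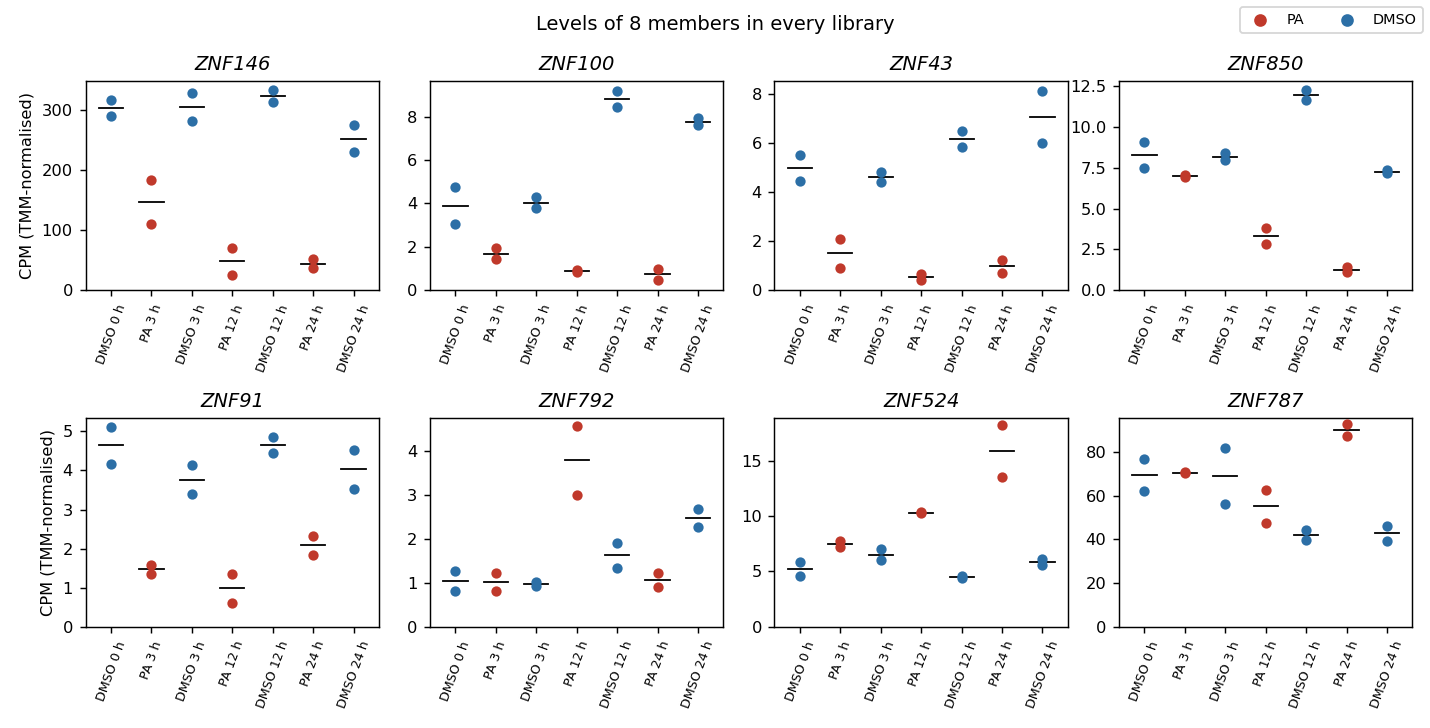
Level of 8 members in CPM (TMM-normalised, linear axes from 0) in every library, with PA points in red, DMSO points in blue and a black bar at the mean of the 2 libraries of a group. ZNF146, ZNF100, ZNF43, ZNF850 and ZNF91 lie lower with PA, ZNF792 lies above DMSO at 12 h and below it at 24 h, and ZNF524 and ZNF787 lie higher with PA at 24 h.

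The run from ZNF175 to ZNF331, at chr19:51571298-53580269, had 17 of 29 members called lower at 12 h and 21 at 24 h, none higher. Its last member is ZNF331, a KRAB gene rearranged in thyroid adenomas, which had 14.1 and 18.9 CPM in PA cells at 12 h, against 28.0 and 28.8 CPM in DMSO cells (log2 change -0.78, edgeR adjusted p = 0.00147). At 24 h it had 12.6 and 13.6 CPM in PA cells, against 25.7 and 25.4 CPM in DMSO cells. The run from ZNF575 to ZNF296, at chr19:43525497-45076588, had 9 of 21 members lower and 1 higher at 12 h. At 24 h 8 were lower and 2 higher. The shares of all genes tested were 24.1% lower and 24.4% higher at 12 h, and 27.5% and 27.2% at 24 h. In the run from ZNF575 to ZNF296, ZNF224, a KRAB repressor of the aldolase A gene, had 2.12 and 4.50 CPM in PA cells at 12 h. DMSO cells at 12 h had 7.50 and 9.24 CPM. The fall of 1.34 on the log2 scale lost its call without DMSO 12 h replicate 2 (-1.18) or PA 12 h replicate 1 (-0.89). Its fall at 24 h of 1.05 lost its call without DMSO 24 h replicate 1 (-0.93) or PA 24 h replicate 2 (-0.67).

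ZNF441 (chr19:11767000-11784078, plus strand), in the run from ZNF627 to ZNF490, had the lowest fitted value of all members at 12 h. It had 0.0719 and 0.286 CPM in PA cells, against 3.15 and 3.70 CPM in DMSO cells, a log2 change of -4.23 ± 0.58 (SE, edgeR adjusted p = 0.000125). The PA libraries held 2 and 8 reads of it, the first below the 3-read level, so the size of this fall and its rank are poorly fixed: the value ranged from -5.50 to -3.56 when 1 library was left out, and the call held. It had 0.388 and 0.279 CPM at 24 h in PA cells and 2.24 and 3.58 CPM in DMSO cells. In that run 7 of 18 members were lower at 12 h and 11 at 24 h, none higher, against 24.1% and 27.5% of all genes tested called lower. ZNF302, the abundant KRAB member at the start of the short run from ZNF302 to ZNF792, had 14.5 and 10.5 CPM in PA cells at 24 h, against 40.1 and 41.4 CPM in DMSO cells (log2 change -1.71, edgeR adjusted p = 0.000628).

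The last run, from ZNF628 to ZNF446 at chr19:55476332-58481230, behaved unevenly. Of its 47 members, 10 were lower and 11 higher at 12 h, and 16 were lower and 13 higher at 24 h, with median log2 changes of -0.19 and -0.21. Its first 12 members, split from the rest by a gap of over 0.5 Mb, had 7 higher and 1 lower at 12 h and 9 higher and none lower at 24 h. Runs were otherwise split at gaps over 1 Mb, and this finer split is given for this run only. The shares of all genes tested were 24.1% lower and 24.4% higher at 12 h, and 27.5% and 27.2% at 24 h. Transcripts of the first 12 members were rich in G and C (median 64.9%).

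ZNF524 (chr19:55600022-55603138, plus strand), a short gene of 4 fingers, had 10.4 and 10.3 CPM in PA cells at 12 h, against 4.62 and 4.37 CPM in DMSO cells, a log2 change of 1.20 ± 0.20 (SE, edgeR adjusted p = 0.000401). At 24 h it had 13.5 and 18.2 CPM in PA cells, against 6.12 and 5.62 CPM in DMSO cells (log2 change 1.43, edgeR adjusted p = 6.1e-05). The groups did not overlap at either time, as the rule that named ZNF524 required. ZNF579 had 21.3 and 21.6 CPM in PA cells at 24 h and 8.45 and 9.93 CPM in DMSO cells (log2 change 1.22, edgeR adjusted p = 0.000953). ZNF581 had 14.9 and 19.4 CPM in PA cells at 24 h, against 7.68 and 7.09 CPM in DMSO cells (log2 change 1.22, edgeR adjusted p = 0.000408).

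ZNF787 had 87.2 and 93.0 CPM in PA cells at 24 h, against 39.4 and 46.0 CPM in DMSO cells, a log2 change of 1.08 ± 0.19 (SE, edgeR adjusted p = 0.000437). DMSO cells at 0 h held 62.0 and 77.0 CPM, so the DMSO level at 24 h was itself below the start (log2 change -0.70, edgeR adjusted p = 0.0708). ZNF444, a SCAN-domain factor known to bind the promoter of an endothelial scavenger receptor gene, had 31.5 and 32.7 CPM in PA cells at 24 h, against 15.1 and 16.9 CPM in DMSO cells (log2 change 1.01, edgeR adjusted p = 0.000828). ZNF580, described in endothelial cells, had 42.2 and 38.2 CPM in PA cells and 23.3 and 28.0 CPM in DMSO cells at 24 h, a log2 change of 0.65 that lost its call without DMSO 24 h replicate 1 (0.52) or PA 24 h replicate 1 (0.58). ZNF784 had 10.7 and 10.5 CPM in PA cells and 5.04 and 6.80 CPM in DMSO cells at 24 h, a log2 change of 0.85 that lost its call without DMSO 24 h replicate 1 (0.65).

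At 12 h the calls of 5 of these genes ended without PA 12 h replicate 1. Without it, the log2 change of ZNF444 was 0.45 in place of 0.71, of ZNF579 0.41 in place of 0.75, of ZNF581 0.26 in place of 0.58, of ZNF784 0.56 in place of 0.88 and of ZNF580 0.52 in place of 0.77. Leaving out DMSO 12 h replicate 1 ended the calls of ZNF579 (0.67), ZNF580 (0.67) and ZNF581 (0.55), and leaving out DMSO 12 h replicate 2 those of ZNF444 (0.64), ZNF579 (0.81), ZNF581 (0.57) and ZNF784 (0.78). The call of ZNF581 also ended without either DMSO 24 h library, at 0.58. The rise of ZNF524 kept its call without any single library.

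Outside that run, ZNF358 (chr19:7515292-7521026, plus strand) had 17.2 and 13.6 CPM in PA cells at 12 h, against 5.69 and 5.24 CPM in DMSO cells, a log2 change of 1.495 ± 0.29 (SE, edgeR adjusted p = 0.00124). It had 16.1 and 15.6 CPM at 24 h in PA cells and 6.45 and 8.88 CPM in DMSO cells, a rise of 1.05 on the log2 scale that lost its call without DMSO 24 h replicate 1 (0.84). It shares 13.3% of its transcript in stretches of 75 bases with other genes and overlaps exons of clone genes on both strands. ZNF296, known in mouse as a partner of pluripotency factors, had 5.61 and 3.75 CPM in PA cells at 12 h, against 1.81 and 3.06 CPM in DMSO cells, a log2 change of 0.93. Its call ended without DMSO 12 h replicate 1 (0.59) or PA 12 h replicate 1 (0.62).

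ZNF221 and ZNF222, in the run from ZNF575 to ZNF296, which match a loose KRAB pattern only, rose at 24 h. ZNF221 had 9.09 and 3.03 CPM in PA cells, against 2.12 and 1.60 CPM in DMSO cells, and its log2 change of 1.70 shrank to 0.71 and lost its call without PA 24 h replicate 1. ZNF222 had 8.32 and 7.91 CPM in PA cells and 5.81 and 4.76 CPM in DMSO cells, a log2 change of 0.62 that lost its call without DMSO 24 h replicate 2 (0.48), PA 24 h replicate 1 (0.58) or PA 24 h replicate 2 (0.65).

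Counts and RPKM disagreed for 6 members. CPM divided by RPKM implied a gene length over 5 times the longest transcript for ZNF536, ZNF671, ZNF132, ZNF549, ZNF814 and ZNF497, as it did for 5.45% of all 14945 genes with both values, and the cause was not tested. ZNF536, a neuronal factor, had 15.4 and 5.16 CPM in PA cells at 24 h, against 4.39 and 4.02 CPM in DMSO cells, a log2 change of 1.29. It averaged only 0.00143 RPKM, and RPKM rounded to 2 decimals could hardly show a change at that level (the fitted change was 0.00). By counts, ZNF536 lost its call without PA 24 h replicate 1 (0.29) or either DMSO 24 h library (1.35 and 1.22). ZNF497 had 7.68 and 6.45 CPM in PA cells at 24 h and 2.77 and 2.91 CPM in DMSO cells, a log2 change of 1.32, with exons of A1BG-AS1 and 2 clone genes overlapping it. Its rise at 12 h of 0.92 lost its call without DMSO 12 h replicate 1 (0.63) or PA 12 h replicate 1 (0.65).

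ZNF792 (chr19:34956354-34964049, minus strand), a KRAB gene, was called in opposite directions. It had 4.57 and 3.00 CPM in PA cells at 12 h, against 1.34 and 1.91 CPM in DMSO cells (log2 change 1.22 ± 0.32, SE, edgeR adjusted p = 0.00753). At 24 h it had 0.917 and 1.22 CPM in PA cells, against 2.27 and 2.68 CPM in DMSO cells (log2 change -1.21 ± 0.34, SE, edgeR adjusted p = 0.00891). Its call at 12 h ended without DMSO 12 h replicate 1 (0.97) or PA 12 h replicate 1 (0.89), and its call at 24 h without DMSO 24 h replicate 2 (-1.09) or PA 24 h replicate 1 (-1.02). Its neighbour ZNF30 was called lower at both times.

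ZNF274, which binds the 3′ ends of zinc finger genes and recruits SETDB1, had 5.71 and 7.15 CPM in PA cells at 24 h, against 8.02 and 10.1 CPM in DMSO cells, a log2 change of -0.50 that lost its call without DMSO 24 h replicate 2 (-0.32) or PA 24 h replicate 1 (-0.34). ZNF304, which encodes a KRAB protein, had 7.37 and 6.38 CPM in PA cells at 24 h and 10.8 and 11.7 CPM in DMSO cells (log2 change -0.71, edgeR adjusted p = 0.00418). At 12 h ZNF304 had 10.2 and 13.6 CPM in PA cells, against 11.5 and 13.9 CPM in DMSO cells, and the groups overlapped.

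Members were also grouped by KRAB domain and finger number, with no test between the groups. Of 129 with a match in the predicted protein, 71 were lower and 3 higher at 12 h, and 81 lower and 4 higher at 24 h, with median log2 changes of -0.96 at both times. Of 62 without a match, 21 were lower and 11 higher at 12 h, and 23 lower and 15 higher at 24 h, with medians of -0.46 and -0.36. Under a looser pattern the 42 without a match had medians of 0.09 and 0.02, turning the sign, and the 149 with a match kept medians of -0.95 and -0.96. Of the 16 members with 19 or more fingers, 12 were lower at 12 h and 13 at 24 h and none was higher. Of the 19 with at most 6 fingers, 4 and 5 were lower and 7 and 6 higher. The shares of all genes tested were 24.1% lower and 24.4% higher at 12 h, and 27.5% and 27.2% at 24 h. The lower calls of the 19 stood near these shares. GC content moved with these groupings, at a median of 40.9% in the 16 and 58.7% in the 19. After the correction for GC content and length given below, the medians under the looser pattern were -0.44 at both times in the 149 with a match. In the 42 without one they were -0.12 at 12 h and -0.14 at 24 h, the sign turning again. Of these 42, 11 were lower and 1 higher at 12 h, and 10 lower and 6 higher at 24 h. The shares of all genes after this correction are given with it below.

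GC content followed the change across members. Spearman's rho between GC content of the longest transcript and the log2 change was 0.64, 0.75 and 0.62 at 3, 12 and 24 h over the 192 members, and 0.48, 0.64 and 0.58 over the 15071 genes with a GC value. Members share libraries and sequence, so these are descriptions. In the 48 members poorest in G and C, 38 were lower and none higher at 12 h, and 35 and none at 24 h. In the 48 richest, 6 were lower and 14 higher at 12 h, and 10 lower and 17 higher at 24 h. All genes tested had 24.1% lower and 24.4% higher at 12 h, and 27.5% and 27.2% at 24 h.

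**Figure D4:**
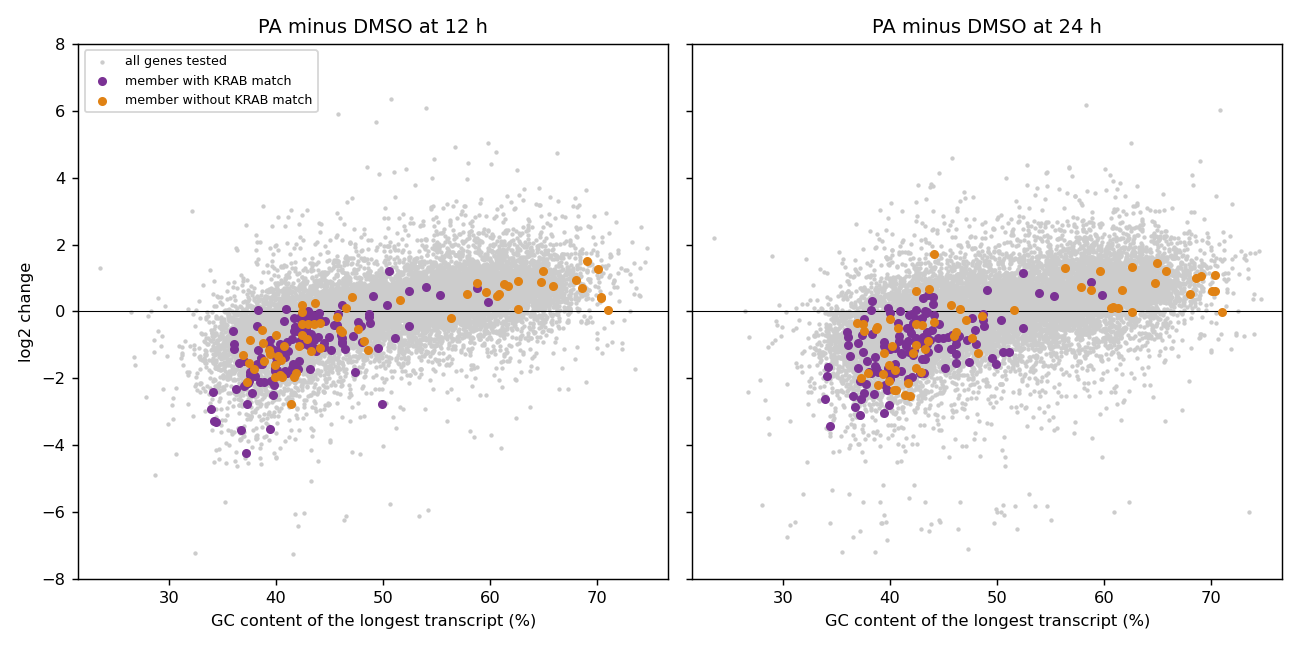
Log2 change, PA minus DMSO, at 12 h (left) and 24 h (right) against the GC content of the longest transcript, for all genes tested with a GC value (grey) and for the members with (purple) and without (orange) a KRAB match. The members follow the slope of the grey cloud (Spearman's rho 0.75 and 0.62 over the members), and the orange points with rises lie at high GC content.

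When each library's dependence on GC content and transcript length was removed before the test, fewer members were called at 12 and 24 h. At 3 h 9 of the 12 calls were kept. At 12 h 60 were lower and 5 higher, with 59 of the 106 calls kept in the same direction and a median log2 change of -0.39. At 24 h 67 were lower and 17 higher, with 73 of the 124 calls kept and a median of -0.39. Across all genes, 17.6% were then called lower and 22.6% higher at 12 h, and 22.3% and 27.1% at 24 h. ZNF146 kept a fall of 2.18 at 12 h and 1.84 at 24 h, ZNF100 of 2.01 and 2.23, ZNF850 of 1.13 and 1.77, and ZNF441 of 3.22 and 2.10, on the log2 scale. ZNF91 fell by 1.16 at 12 h and stood at 0.11 at 24 h. Both calls of ZNF224 ended, at -0.59 at 12 h (edgeR adjusted p = 0.0633) and -0.27 at 24 h (edgeR adjusted p = 0.351), as did that of ZNF675 at 24 h, at -0.45 (edgeR adjusted p = 0.306). The direction turned in 7 of the members called at 12 h and in 7 of those called at 24 h.

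Among the rises, 3 of 14 kept their call at 12 h (ZNF358, ZNF792 and ZNF71) and 8 of 19 at 24 h (ZNF536, ZNF221, ZNF222, ZNF524, ZNF581, ZNF416, ZNF497 and ZNF324). ZNF524 stood at 0.55 at 24 h after the correction, ZNF579 at 0.43, ZNF787 at 0.16, ZNF358 at 0.15 and ZNF444 at 0.11, on the log2 scale. At 12 h ZNF524 stood at 0.41 and ZNF296 at 0.081, and ZNF787, not called without the correction, became called lower at -0.46. The part of GC content in these results, in the cells or in the libraries, was not tested.

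**Figure D5:**
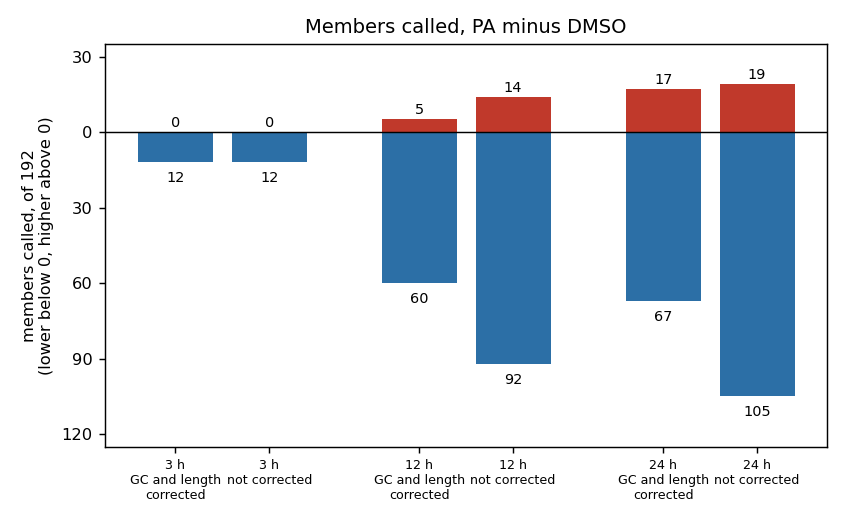
Number of the 192 members called higher (red, above 0) and lower (blue, below 0) with PA at 3, 12 and 24 h, with GC content and length of transcripts corrected for (left bar of each pair) and without it (right bar). Lower calls number 60 against 92 at 12 h and 67 against 105 at 24 h.

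ZNF genes elsewhere in the genome were also more often called lower than higher. Of 213 tested outside chromosome 19, 98 were lower and 29 higher at 12 h, and 100 lower and 25 higher at 24 h, with medians of -0.48 and -0.52. Of 780 other protein-coding genes of chromosome 19 tested, 463 were higher and 21 lower at 12 h, and 469 higher and 39 lower at 24 h, with medians of 0.72 and 0.76. Their median GC content was 60.8%, against 45.4% in the ZNF genes elsewhere and 42.4% in the members. After the correction for GC content and length, 78 of the ZNF genes elsewhere were lower and 24 higher at 12 h, and 83 lower and 19 higher at 24 h, with medians of -0.26 and -0.34. Of 778 other genes of chromosome 19, 194 were then higher and 112 lower at 12 h, and 255 higher and 157 lower at 24 h, with medians of 0.14 and 0.15.

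Of 19 genes of the silencing machinery that KRAB proteins call on, 11 were lower and 4 higher at 12 h. At 24 h 12 were lower and 3 higher. Of all genes tested, 24.1% were called lower and 24.4% higher at 12 h, and 27.5% and 27.2% at 24 h. Values of the 19 after the GC and length correction, or without single libraries, are not given here. The falls among the 19 included MPHOSPH8, FAM208A and PPHLN1, the subunits of the HUSH complex, ATRX, a chromatin remodeller, and UHRF1, a partner of the DNA methyltransferase DNMT1. MPHOSPH8 changed by -1.51 and -1.72 at 12 and 24 h, UHRF1 by -1.52 and -1.91, and ATRX by -2.77 and -1.72 on the log2 scale. TRIM28 itself was higher at 12 h (0.60, edgeR adjusted p = 0.0125) and did not pass at 24 h (0.33, edgeR adjusted p = 0.122). SETDB1 was higher at 12 h (0.36, edgeR adjusted p = 0.0399) and did not pass at 24 h (0.13, edgeR adjusted p = 0.434).

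The PA effects at different times were set against each other. Between 12 and 3 h, 2 members differed, ZNF100 and ZNF850, both with a lower PA effect at 12 h, where 0.685% of all genes tested were called lower and 2.10% higher. Between 24 and 12 h only ZNF792 differed (-2.42, edgeR adjusted p = 0.046), where 0.158% of all genes tested were called lower and 0.263% higher, and that call ended in 12 of the 14 fits that left out 1 library. Between 24 and 3 h, 12 members had a lower effect at 24 h and 6 a higher one, against 6.20% and 8.24% of all genes tested. These differences share the PA and DMSO libraries of a time and are not independent of each other. The call of ZNF100 between 12 and 3 h ended without either DMSO 12 h library, DMSO 3 h replicate 1 or PA 3 h replicate 2, where its value stayed between -2.27 and -1.82 over all 14 fits. Counts moved with single libraries: without PA 12 h replicate 2, 68 members differed between 12 and 3 h, and without either PA 12 h library 43 differed between 24 and 3 h, against 3 without DMSO 3 h replicate 1, PA 3 h replicate 2 or DMSO 24 h replicate 2.

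In DMSO cells alone few members were called. Against DMSO cells at 0 h, none was called at 3 h by edgeR or DESeq2, where 0.00% of all genes tested were called, and 3 had an unadjusted p under 0.05, against 1.42% of all genes tested. At 12 h 2 were called higher, ZNF100 (log2 change 1.19, edgeR adjusted p = 0.0478) and ZNF543 (0.89, edgeR adjusted p = 0.0478), against 0.323% of all genes tested. ZNF543 had 10.4 and 9.88 CPM in DMSO cells at 12 h and 5.52 and 5.41 CPM in DMSO cells at 0 h. At 24 h none was called by edgeR and 4 by DESeq2, where 2.46% of all genes tested were called by edgeR, and 20 had an unadjusted p under 0.05, against 17.2% of all genes tested. These comparisons share the DMSO 0 h libraries, and both calls at 12 h ended in 10 (ZNF100) and 12 (ZNF543) of the 14 fits without 1 library. Without either PA 12 h library, 11 members were called at 12 h and 7 at 24 h.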

How the data were processed

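RNA of PANC-1 cells was sequenced in 14 libraries. The authors deposited raw read counts per gene and RPKM values rounded to 2 decimals. TopHat2, edgeR and the build GRCh38 are named per the submitters' processing notes, without versions or roles. For the counting tool, annotation and strand setting, nothing is given in the sources used here. How the counting treated reads shared by similar genes is likewise unknown, and depth ranged from 26403984 to 35213154 reads, so 3 reads equal 0.0852 to 0.114 CPM.

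Counts were tested with edgeR 4.0.16 in R 4.3.3 (TMM, filterByExpr, quasi-likelihood F test, two-sided, 1 mean per group, all 14 libraries) with Benjamini-Hochberg adjustment over the 15181 genes tested and a threshold of 0.05. CPM were TMM-normalised. Alternatives used DESeq2 1.42.0, limma 3.58.1 on log2(RPKM + 1) or log2(RPKM + 0.1), other filters, natural splines on GC content and length, and each library left out. The edgeR and limma steps were tested on simulated data in which few genes changed, without a GC trend or unlike replicates. These data differ in all of those points, so the simulation checks the steps and not the calls made here. The GC correction and DESeq2 were not simulated. Same-numbered libraries of 2 of 21 pairs of groups correlated over 0.1 (range -0.22 to 0.24), so the main fit did not pair them. With 2 libraries per group, this cannot exclude that equal numbers mark a shared culture or run.

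GC content, coordinates, fingers and KRAB matches came from GENCODE release 29, with predicted proteins translated from its coding sequences in place of the RefSeq proteins first planned, and promoters from RefSeq GRCh38.p14. Runs of neighbours were split at gaps over 1 Mb. Groups by GC content and finger number are descriptions. Genes named were, per PA time, the 6 largest called rises and falls with a mean of at least 1 CPM and no overlap of libraries, 3 each way for other contrasts, the 6 highest by RPKM, 12 fixed genes and extremes. Genes listed to spell out a count were added after their values were seen. The members and lists were chosen with earlier results of these data known. Python 3.11.15 drew the figures.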

Additional observations from a re-analysis of the deposited data

Results flagged for a closer look

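The PA effect differed between times in these 10 members, the named ones of those that passed, by edgeR's quasi-likelihood test of the difference, with adjusted p over all genes tested, and no explanation was tested. The effect at 12 h minus that at 3 h was -2.07 in ZNF100 (edgeR adjusted p = 0.0241) and -1.64 in ZNF850 (edgeR adjusted p = 0.00691), on the log2 scale. For ZNF792 the effect at 24 h minus that at 12 h was -2.42 (edgeR adjusted p = 0.046). Among all genes tested, 0.685% were called lower and 2.10% higher between 12 and 3 h. The shares between 24 and 12 h were 0.158% and 0.263%.

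For the effect at 24 h minus that at 3 h, ZNF429 stood at -2.17, ZNF100 at -2.17 and ZNF850 at -2.30. The same difference was 1.17 in ZNF222, 1.28 in ZNF579, 1.24 in ZNF524, 0.88 in ZNF580, 0.98 in ZNF581 and 1.05 in ZNF787. After correction for GC content and length, ZNF100, ZNF850 and ZNF222 still passed, at -1.55, -1.85 and 1.34, and the other 6 of these 9 did not. Without PA 3 h replicate 2, ZNF429 stood at -0.99. Only ZNF100 and ZNF850 kept this call in all 14 fits that left out 1 library. Between 24 and 3 h all the rises that passed are listed here, but most of the falls are not. Among all genes tested, 6.20% were called lower and 8.24% higher. By the counts given above, the share of members was near the first value and below the second.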

How the results depend on the processing

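Members called at 3 h numbered 12, and 23 by DESeq2, 43 with no filter, 45 with the libraries of the 2 groups alone, 2 by limma on log2(RPKM + 0.1) and 7 by limma on genes of RPKM 1 or more. At 12 h 106 were called, and 65 with the 2 groups alone, 65 with the GC and length correction and 62 with that correction and the replicate block. At 24 h the 124 calls were 80 under the last setting. The replicate block alone gave 9, 102 and 120 calls at 3, 12 and 24 h.

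Between 12 and 3 h the 2 calls were 13 by DESeq2, 23 with no filter and 5 with the GC correction, with or without the block. Between 24 and 12 h the 1 call was 2 by DESeq2, 3 with no filter, 0 with a filter of 5 CPM, 0 with the block, 0 by limma on genes of RPKM 1 or more and 2 with the GC correction, with or without the block. Between 24 and 3 h the 18 calls were 44 with no filter.

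In DMSO cells at 12 h against 0 h the 2 calls were 7 by DESeq2, 0 with RLE size factors, 13 with no filter, 0 with the block, 34 with the 2 groups alone, 4 and 1 by limma with RPKM + 1 and + 0.1, and 6 with the GC correction. At 24 h the 0 calls were 4 by DESeq2, 10 with no filter, 31 with the 2 groups alone, 4 by limma with RPKM + 1, 1 on genes of RPKM 1 or more, and 4 with the GC correction, with or without the block.

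Leaving out 1 library gave 0 to 48 calls at 3 h, 63 to 133 at 12 h, 85 to 130 at 24 h, 1 to 68 between 12 and 3 h, 0 to 5 between 24 and 12 h, 3 to 43 between 24 and 3 h, and in DMSO cells 0 to 0 at 3 h, 0 to 11 at 12 h and 0 to 7 at 24 h.

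The GC correction turned the direction of 7 members called at 12 h and 7 called at 24 h. Among the members with values given above, directions turned under it, without and with the block, for ZNF579 at 12 h (-0.027 and -0.032), ZNF581 at 12 h (-0.099 and -0.098), ZNF787 at 12 h (-0.46 and -0.46), ZNF444 at 12 h (-0.14 and -0.14), ZNF580 at 24 h (-0.12 and -0.13) and ZNF91 at 24 h (0.11 and 0.12). ZNF784 at 24 h turned with the correction and the block together (-0.0035), and ZNF536 at 24 h stood at 0.00 and 0.00 in both RPKM fits. The cause was not tested. The replicate block ended the call between 24 and 12 h and both DMSO calls at 12 h; members near 3 reads in PA cells are limited by depth.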

Other observations

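Members that resemble or overlap other genes were left out of a further count. How reads were assigned was not tested, because the treatment of shared reads in the deposited counts is unknown. Among the 172 members with at most 10% of their transcript in shared stretches of 75 bases, 86 were lower and 11 higher at 12 h, and 96 lower and 15 higher at 24 h. Among the 107 of these with no exon overlap with another gene, 51 were lower and 9 higher at 12 h, and 57 lower and 12 higher at 24 h. Their median log2 changes were -0.88 and -0.79, against -0.86 and -0.81 over all members. Among all genes tested, 24.1% were called lower and 24.4% higher at 12 h, and 27.5% and 27.2% at 24 h.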
